A study of Rattus norvegicus with 23 samples.

Results

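The genes of cyclic AMP and heterotrimeric G protein signalling were followed in rat dorsal root ganglia after transection of the sciatic nerve. Members were taken by gene symbol alone: G protein alpha, beta and gamma subunits, regulators of G protein signalling (RGS), adenylyl cyclases, phosphodiesterases, protein kinase A subunits, A-kinase anchoring proteins (AKAP) and CREB. The rule found 80 genes, read by 87 probes, among the 4153 genes and 5088 probes of the array. It also took 5 subunits of the AMP-activated protein kinase, whose symbols start like those of protein kinase A, and Pde4dip, which is named for binding a phosphodiesterase and is not one. Pde4dip is counted below with the phosphodiesterases, the subfamily its symbol falls in, and the kinase subunits are given apart. 7 genes had 2 probes each.

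The animals were Long-Evans rats operated at postnatal day 20 to 24, and the ganglia were lumbar L4 and L5. Each of the 23 arrays compared RNA of lesioned ganglia, labelled with Cy5, with RNA of intact ganglia, labelled with Cy3. Lesioned ganglia were taken 4, 8, 12, 18, 24, 48, 148 and 296 h after the cut, with 3 arrays at each time and 2 at 296 h, 1 of which carries 294 h in another label. The labels also call the material cultured ganglion cells and speak of cyclic AMP treated cultures in the labelling text, whereas the treatment text describes the operated animals. The labels do not say whether the intact ganglia came from the other side of the same animal, from other animals, or from pools. They also do not say that the arrays of a time came from separate animals, so p-values measure the spread between these arrays, which may be technical.

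Cyclic AMP is made by adenylyl cyclases, which stimulatory G protein alpha subunits activate and inhibitory alpha subunits restrain. RGS proteins speed the return of alpha subunits to the inactive state, phosphodiesterases break cyclic AMP down, and protein kinase A carries the signal to its substrates, CREB among them, from places set by anchoring proteins. In sensory neurons the pathway is known both for sensitising pain responses and for raising the capacity of the axon to grow on myelin. The study set the conditioning lesion beside treatment with cyclic AMP, and the question addressed here is which parts of the pathway's own machinery differed in transcript ratio after the lesion.

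All values are ratios of lesioned over intact ganglia, given as log2, so 1 is a doubling and -1 a halving. The direction is likely rather than stated: it follows from the dyes in the labels and the study's description of its companion arrays. There was no dye swap, so a dye effect that is constant for a probe would add to every value of that probe. Array medians lay between 1.00151 and 1.06065 on the linear scale. 17 arrays measured 4945 to 5011 probes, with a log2 standard deviation of 0.506 to 0.913. The other 6 arrays (48 h arrays 2 and 3, all of 148 h, and 296 h array 2) measured 2063 to 4353 probes with a standard deviation of 1.22 to 1.61, and are called sparse arrays. Arrays were weighted in the fit by their scatter around the mean of their time, the sparse ones at 0.22 to 0.55 and the full ones at 0.39 to 3.10. With only 2 arrays at 296 h that scatter is shared equally, so the full and the sparse array of that time had the same weight of 0.39 although their standard deviations were 0.549 and 1.60. The level of a transcript is not in the data, so the labelled tissue could not be checked by the presence of its markers. In whole ganglia, fewer cells of a type and less RNA per cell cannot be told apart.

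Few members differed at any single time. After adjustment over all probes tested at that time, 0 of 86 member probes passed at 4 h (background 1.85% of all probes), 1 of 86 at 8 h (1.26%), 3 of 87 at 12 h (3.61%), 0 of 86 at 18 h (2.07%) and 4 of 86 at 24 h (6.19%). At the later times 4 of 81 passed at 48 h (3.96%), 5 of 63 at 148 h (8.75%) and 0 of 54 at 296 h (0.106%). These counts were near the background at every time. At 4 h, 18 h and 296 h, where none passed, 6, 16 and 5 member probes had an unadjusted p under 0.05. At 24 h the members leaned low: 25 of 86 lay above 0, against 2674 of 5011 of all probes, and their median was -0.18, against 0.03 for all probes. With identifier groups centred, as described for the beta subunits, these medians were -0.13 and 0.01. The 17 calls fell on 15 genes, because Adcy2 and Gng5 passed at more than 1 time.

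**Figure D1:**
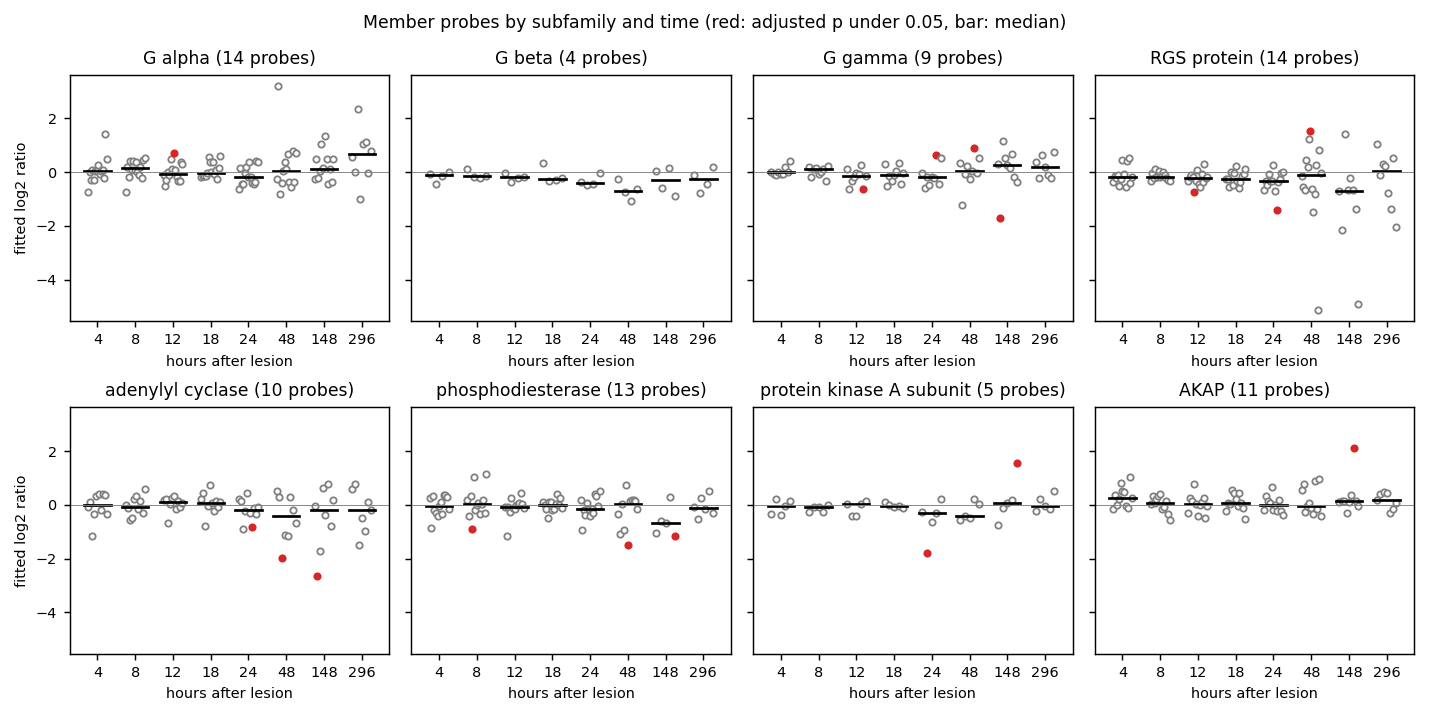
Fitted log2 ratio of lesioned over intact ganglia (vertical axis) for every member probe with at least 2 values, by hours after the lesion (horizontal axis) and subfamily, with red points past an adjusted p of 0.05 and bars at the median. The 2 CREB and 5 AMP-activated protein kinase probes are not drawn, and the passing points are spread over 7 of the 8 panels.

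Among the alpha subunits, Gnai3, an inhibitory subunit, was the member with the highest mean over the 8 times. Its probe read 0.38, 0.80 and 0.74 at 12 h, 0.74, 0.43 and 1.12 at 48 h, 1.72, 1.22 and 1.32 at 148 h, and 0.35 and 4.33 at 296 h. It was above 0 on 21 of 23 arrays and on all 8 late arrays, and the value of 4.33 stood far above the rest. At 12 h it was higher in lesioned ganglia by 0.72 ± 0.20 (SE, adjusted p = 0.0496), a call that was lost in 21 of 23 fits that left out 1 array. Over the 8 times its mean was 0.77 ± 0.13 (SE, adjusted p = 0.000165), or 1.70-fold, and stayed between 0.52 and 1.01 with any 1 array left out.

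Gnaz, an inhibitory subunit found mainly in neurons and platelets, was above 0 on 21 of 22 arrays, with a mean of 0.53 ± 0.14 (SE, adjusted p = 0.005). Gnas, the stimulatory subunit that activates adenylyl cyclase, was low by a small amount on nearly every array. It read -0.35, -0.36 and -0.31 at 12 h and -0.36, -0.28 and -0.48 at 24 h, and was above 0 on only 2 of 23 arrays. Its mean was -0.27 ± 0.07 (SE, adjusted p = 0.00379). With array class (full or sparse) as a block neither Gnaz (0.54, adjusted p = 0.0886) nor Gnas (-0.24, adjusted p = 0.127) passed, and with identifier groups centred, as described for the beta subunits, both passed, Gnaz at 0.35 and Gnas at -0.46. After that centring Gnas also passed at 12 h (-0.38), 24 h (-0.49) and 148 h (-0.93). Gnai2 (probe 29C10), Gnaq, Gnal, Gna11 (probe 36C04) and Gnao1, an inhibitory class subunit that was below 0 on 18 of 23 arrays, did not pass.

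All 4 beta subunits had a mean below 0, and 3 of the 4 passed: Gnb2 at -0.48 ± 0.12 (SE, adjusted p = 0.00297), Gnb4 at -0.33 ± 0.12 (SE, adjusted p = 0.0447) and Gnb5, the partner of the R7 class of RGS proteins, at -0.24 ± 0.09 (SE, adjusted p = 0.0452). Gnb1 averaged -0.05. These 4 probes share an identifier group: the number that opens the probe identifiers puts them in a set of 96 probes whose array medians were below 0 on 22 of 23 arrays. The labels do not say what that number stands for. With the median of each such group subtracted on each array, Gnb2 remained lower at -0.30 (adjusted p = 0.0443), while Gnb4 and Gnb5 lay at -0.14 (adjusted p = 0.365) and -0.06 (adjusted p = 0.633). Gnb1, which passed no test as deposited, was higher at 18 h after this centring (0.54, adjusted p = 0.0217). The Gnb4 and Gnb5 calls were also lost in 12 of 21 and 14 of 23 fits that left out 1 array.

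The gamma subunits, small proteins that anchor the beta subunit to the membrane, moved in both directions. Gng5, a widely expressed gamma subunit, read 0.03, 0.33 and 0.20 at 4 h, 0.74, 0.64 and 0.62 at 24 h, 0.78, 1.08 and 0.86 at 48 h, 0.84, 0.81 and 0.41 at 148 h, and 1.01 and 0.52 at 296 h. Every array from 12 h on was above 0, and the arrays of 24 h and of 48 h lay close together. The difference was 0.65 ± 0.14 (SE, adjusted p = 0.00985), or 1.57-fold, at 24 h and 0.90 ± 0.25 (SE, adjusted p = 0.0454) at 48 h. The 24 h call was lost without array 2 (0.68, adjusted p = 0.0644) or array 3 (0.69, adjusted p = 0.0974), and the 48 h call in 18 of 23 such fits. The mean over the 8 times was 0.49 ± 0.07 (SE, adjusted p = 6.08e-05), or 1.40-fold.

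Gng11 went the other way. It read -0.91, -1.24 and -2.05 at 48 h, -1.37, -1.63 and -1.99 at 148 h, and -0.41 and -0.02 at 296 h. It was below 0 on every late array, by least at 296 h. At 148 h it was lower by -1.72 ± 0.42 (SE, adjusted p = 0.0171), or 3.29-fold, and its mean over the times was -0.64 ± 0.11 (SE, adjusted p = 0.000201). Without array 2 or array 3 the 148 h value was -1.68 (adjusted p = 0.107) or -1.50 (adjusted p = 0.178). Gng7, studied mostly in striatal neurons, read -1.11, -0.72 and -0.41 at 12 h. It was lower there by -0.64 ± 0.16 (SE, adjusted p = 0.0326), a call lost without any 1 of the 3 arrays, where it ran between -0.91 and -0.57.

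**Figure D2:**
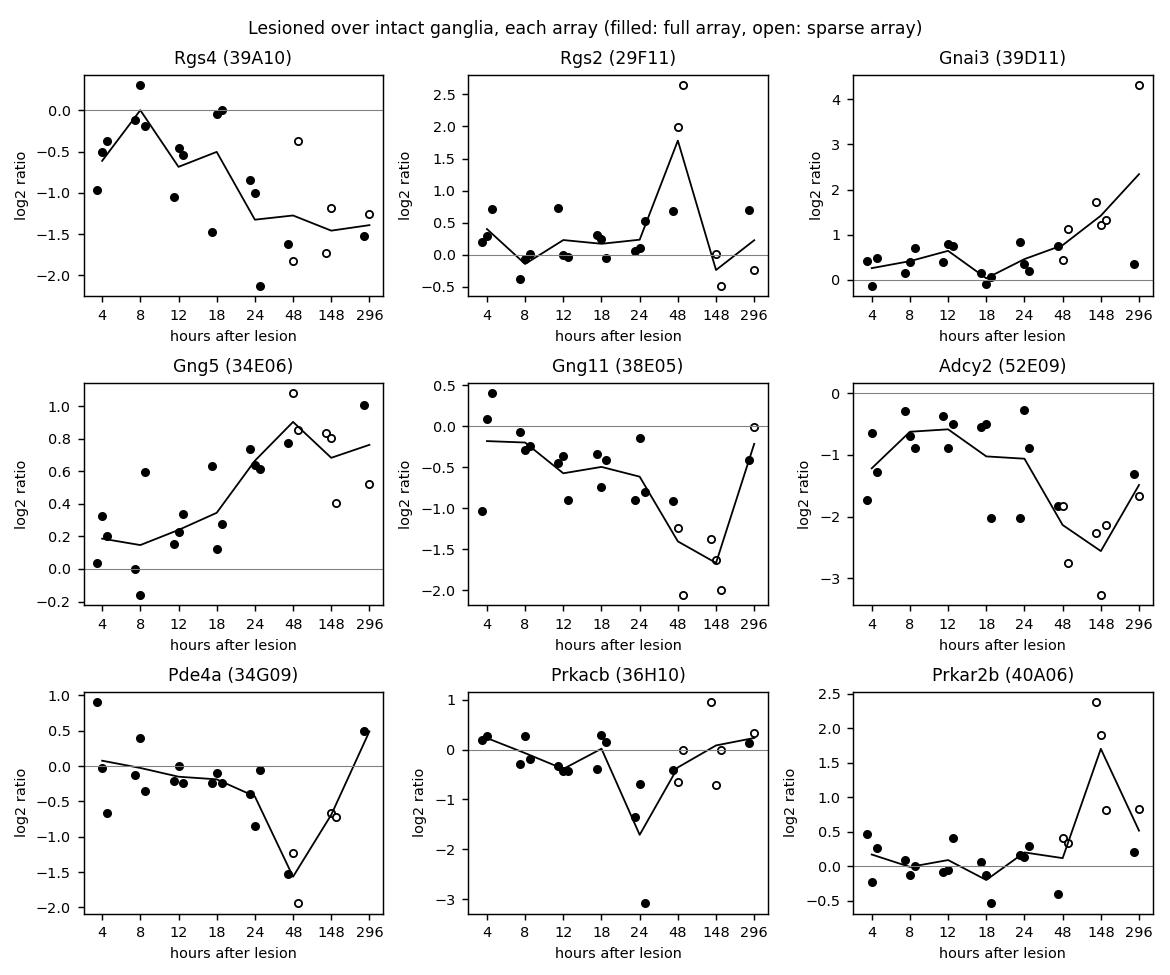
Log2 ratio of lesioned over intact ganglia (vertical axis, scaled separately in each panel) on every array for 9 member probes, by hours after the lesion (horizontal axis). Filled points are full arrays, open points sparse arrays and lines join the unweighted means; Adcy2 (probe 52E09) lies below 0 on all 23 arrays.

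Among the RGS proteins, Rgs4 was lower, passing at 24 h, and Rgs2 higher, passing at 48 h. Rgs4, which is abundant in neurons and acts on the inhibitory and Gq classes of alpha subunit, read -0.11, 0.31 and -0.19 at 8 h, -0.84, -1.0 and -2.13 at 24 h, -1.62, -1.82 and -0.37 at 48 h, -1.73 and -1.18 at 148 h, and -1.52 and -1.26 at 296 h. It was below 0 on every array from 24 h on. It was also below 0 on 8 of 9 arrays of 4, 8 and 12 h, those of 8 h lying around 0. At 24 h the difference was -1.42 ± 0.28 (SE, adjusted p = 0.00699), or 2.68-fold lower, and without array 3 it was -0.92 (adjusted p = 0.223). The mean over the times was -0.92 ± 0.16 (SE, adjusted p = 0.000261), or 1.89-fold lower.

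Rgs2, a short RGS protein that acts chiefly on Gq and is known as an early response gene, read 0.06, 0.11 and 0.53 at 24 h, 0.69, 2.00 and 2.65 at 48 h, 0.02 and -0.49 at 148 h, and 0.69 and -0.24 at 296 h. The 48 h arrays 2 and 3, both sparse, held the high values, and 148 h was around 0. At 48 h it was higher by 1.52 ± 0.34 (SE, adjusted p = 0.018), or 2.88-fold. Without array 2 the value was 1.67 (adjusted p = 0.0979) and without array 3 it was 1.34 (adjusted p = 0.0649).

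Rgs14, which also binds Ras family proteins, read -0.20, -0.89 and -0.75 at 12 h and was lower by -0.74 ± 0.17 (SE, adjusted p = 0.0193). Without array 2 or array 3 it was -0.48 (adjusted p = 0.636) or -0.55 (adjusted p = 0.592), and with identifier groups centred -0.53 (adjusted p = 0.0902). Rgs3 and Rgs10 had lower means of -0.47 ± 0.11 (SE, adjusted p = 0.00238) and -0.29 ± 0.08 (SE, adjusted p = 0.00852), and neither passed once identifier groups were centred, at -0.28 and -0.10. Rgs10 was also not past the threshold without 48 h array 1 (-0.23, adjusted p = 0.0526). The mean of Rgs12 passed only with identifier groups centred, as higher (0.42, adjusted p = 0.0274). Rgs7, a neuronal R7 class member, had values on only 12 arrays, among them -13.15 on 48 h array 2 and -10.10 on 148 h array 1, and passed at no time.

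The promoters of Rgs4, Rgs2, Gng5 and Gng11 are shown because these genes differed in opposite directions and because CREB acts through a short DNA element. The windows run from 250 bases before to 50 bases after the annotated start and come from RefSeq on the GRCr8 build. Capitals mark the core of the cyclic AMP response element, TGACG, or CGTCA where it lies on the other strand.
Rgs4 promoter, chr13:84475835-84476134, minus strand: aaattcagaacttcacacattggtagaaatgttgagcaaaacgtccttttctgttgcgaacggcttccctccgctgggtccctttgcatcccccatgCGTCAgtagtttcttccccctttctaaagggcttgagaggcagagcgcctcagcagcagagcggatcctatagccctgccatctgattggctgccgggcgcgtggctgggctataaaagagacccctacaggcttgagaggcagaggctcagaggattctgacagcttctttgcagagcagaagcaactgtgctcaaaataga
Rgs2 promoter, chr13:58352617-58352916, minus strand: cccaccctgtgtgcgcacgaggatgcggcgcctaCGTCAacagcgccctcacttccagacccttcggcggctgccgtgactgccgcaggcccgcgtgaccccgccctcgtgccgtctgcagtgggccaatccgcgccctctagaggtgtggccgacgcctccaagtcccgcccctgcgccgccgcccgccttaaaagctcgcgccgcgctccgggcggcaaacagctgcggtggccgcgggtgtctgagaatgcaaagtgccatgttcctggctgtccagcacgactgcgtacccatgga
Gng5 promoter, chr2:238054704-238055003, plus strand: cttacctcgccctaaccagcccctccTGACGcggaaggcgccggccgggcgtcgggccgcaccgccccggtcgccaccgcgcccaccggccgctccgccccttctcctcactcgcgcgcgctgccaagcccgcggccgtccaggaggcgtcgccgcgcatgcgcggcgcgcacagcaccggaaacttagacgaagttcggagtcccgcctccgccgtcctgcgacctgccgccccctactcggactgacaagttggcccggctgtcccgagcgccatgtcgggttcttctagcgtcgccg
Gng11 promoter, chr4:32977431-32977730, plus strand: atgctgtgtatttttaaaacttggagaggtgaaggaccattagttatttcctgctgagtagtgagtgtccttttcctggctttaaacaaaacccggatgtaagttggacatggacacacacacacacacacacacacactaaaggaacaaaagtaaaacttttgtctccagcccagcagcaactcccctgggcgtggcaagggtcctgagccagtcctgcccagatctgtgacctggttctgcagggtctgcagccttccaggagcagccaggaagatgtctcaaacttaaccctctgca
The core began 153 bases before the start in Rgs4, 216 in Rgs2 and 224 in Gng5, so it occurred in a gene that was lower and in others that were higher, and the Gng11 window held none. The windows of Adcy2, Prkar2b and Akap8 held none either, nor did those of Gnb4, Gng7, Rgs10 and Rgs14. Other members past a threshold had the core in a window: Pde4a, Prkaca, Prkacb, Gnas, Gnb2, Gnb5, Rgs3 and Prkag1. Over 81 windows of 67 member genes, 23 held the core on either strand (28.4%), against 7097 of 33469 windows of all genes (21.2%). The full element TGACGTCA, which contains the core on both strands, was in 1 member window, that of Gnao1 (1.23%), against 612 of all windows (1.83%). A match describes the letters only and says nothing of binding.

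Adenylyl cyclase 2, a neuronal cyclase stimulated by beta-gamma subunits, had, by probe 52E09, the lowest mean over the 8 times of any member probe tested. That probe read -1.74, -0.64 and -1.28 at 4 h, -0.37, -0.88 and -0.51 at 12 h, -1.82, -1.83 and -2.75 at 48 h, -2.27, -3.27 and -2.14 at 148 h, and -1.31 and -1.67 at 296 h. It was below 0 on all 23 arrays and lowest at 148 h. The difference was -1.99 ± 0.49 (SE, adjusted p = 0.0288) at 48 h and -2.64 ± 0.57 (SE, adjusted p = 0.00827), or 6.21-fold lower, at 148 h. The mean was -1.28 ± 0.15 (SE, adjusted p = 3.67e-06), or 2.42-fold lower. The 148 h call was lost without array 2 (-2.20, adjusted p = 0.106) or array 3 (-2.77, adjusted p = 0.0621), and the 48 h call without any 1 of its 3 arrays.

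The other Adcy2 probe did not show this. Probe 20A02 was above 0 on 14 of 20 arrays, read -0.62, 1.14 and 0.91 at 48 h and 0.00 and 1.60 at 296 h, and had no value at 148 h. Its unweighted mean over the arrays of 4, 8 and 12 h was 0.09, against -0.81 for probe 52E09 on the same arrays. The lower ratio of Adcy2 therefore rests on 1 of its 2 probes. Probe 52E09 belongs to an identifier group of 96 probes whose array medians were below 0 on all 23 arrays, with 74.7% of its tested probes past the threshold for the mean effect. With identifier groups centred, its mean was -0.92 (adjusted p = 5.0e-05) and its 148 h value -2.10 (adjusted p = 0.0229), and the 48 h value of -1.51 no longer passed (adjusted p = 0.0944).

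Adcy5, a cyclase inhibited by calcium and by inhibitory alpha subunits, also had 2 probes, which were on the same side of 0 at 24 h and differed over the other times. Probe 52C07 read -1.27, -0.79 and -0.60 at 24 h, with a difference of -0.81 ± 0.23 (SE, adjusted p = 0.0445) and a mean of -0.50 ± 0.12 (SE, adjusted p = 0.00347). Probe 20A12 was above 0 on 12 of 19 arrays. Both Adcy5 probes were below 0 on every 24 h array. Probe 52C07 shares the identifier group of the low Adcy2 probe, and after centring neither its 24 h value of -0.49 (adjusted p = 0.225) nor its mean of -0.14 (adjusted p = 0.356) passed. Its 24 h call was also lost in 16 of 23 fits that left out 1 array. The remaining cyclases tested over all times (Adcy3, Adcy6, Adcy7 and Adcy10) did not pass, and Adcy3 held a single value of -8.39 on 48 h array 3.

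**Figure D3:**
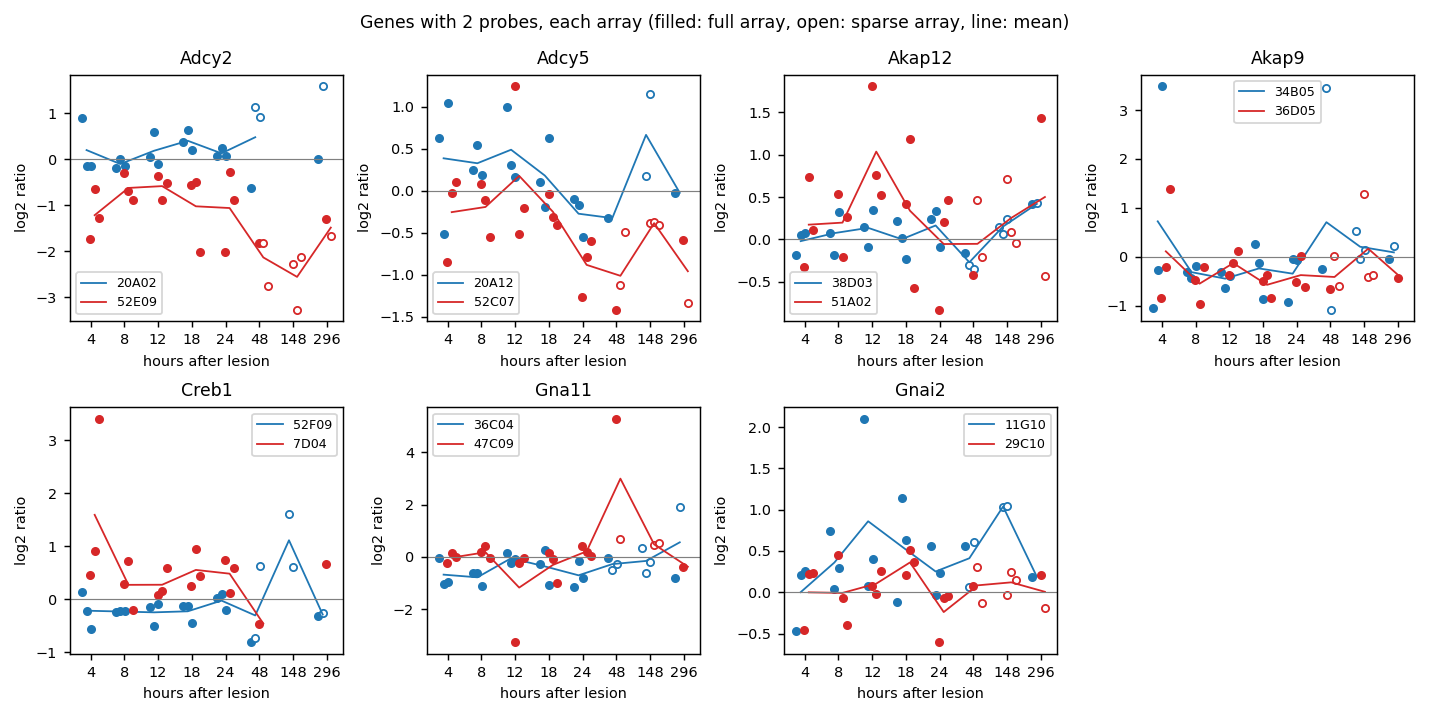
Log2 ratio of lesioned over intact ganglia (vertical axis, scaled separately in each panel) on every array for the 7 genes with 2 probes, by hours after the lesion (horizontal axis). Filled points are full arrays, open points sparse arrays, lines join the means and colours mark the probes; the 2 Adcy2 probes lie on opposite sides of 0 on most arrays.

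Among the phosphodiesterases, Pde4a, a cyclic AMP specific enzyme, read -0.39, -0.85 and -0.05 at 24 h, -1.53, -1.22 and -1.94 at 48 h, and -0.66 and -0.72 at 148 h. The 3 arrays of 48 h lay below every other array of this probe. The 48 h difference was -1.49 ± 0.38 (SE, adjusted p = 0.037), or 2.81-fold lower, and it lost the call without any 1 of the 3 arrays, at -1.74 to -1.38. Pde2a, which is stimulated by cyclic GMP and degrades both cyclic nucleotides, read -1.37, -0.25 and -0.88 at 8 h and was lower by -0.89 ± 0.18 (SE, adjusted p = 0.0199). Without array 1 or array 3 that value was -0.57 (adjusted p = 0.285) or -0.81 (adjusted p = 0.106). Its mean of -0.43 ± 0.10 (SE, adjusted p = 0.00231) became 0.0063 when identifier groups were centred (adjusted p = 0.965).

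Pde4dip (myomegalin), a scaffold of the Golgi and centrosome that binds a cyclic AMP phosphodiesterase, read 0.63, 0.24 and 0.60 at 12 h, -0.55, -1.87 and -0.75 at 148 h, and -0.33 and -0.24 at 296 h. All arrays of 12 h were above 0 and all of 148 h and 296 h below it. At 148 h it was lower by -1.17 ± 0.34 (SE, adjusted p = 0.0372), and without array 2 or array 3 the value was -0.65 (adjusted p = 0.474) or -1.21 (adjusted p = 0.159). Only 4 of the 13 probes of this subfamily had the 2 values at every time that the joint tests asked for, so besides Pde4a also Pde1b, the Pde3 genes, Pde4c, Pde4d, Pde5a, Pde7a and Pde10a were tested at single times alone, and none of these but Pde4a passed.

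The protein kinase A subunits gave 2 calls at single times, in different subunits and at different times. Prkacb, the beta catalytic subunit, read -0.32, -0.42 and -0.42 at 12 h, -1.35, -0.70 and -3.09 at 24 h, -0.41, -0.65 and -0.01 at 48 h, and 0.14 and 0.33 at 296 h. The 24 h arrays were the lowest 3 of this probe, apart from 148 h array 2 at -0.71, which lay just below the highest of them. The 24 h difference was -1.81 ± 0.31 (SE, adjusted p = 0.00264), or 3.49-fold lower, and without array 3 it was -1.02 (adjusted p = 0.0516). With identifier groups centred it was -1.36 (adjusted p = 0.0167).

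Prkar2b, the type II beta regulatory subunit found in neurons and fat, lay between -0.54 and 0.47 up to 48 h and read 2.38, 1.90 and 0.82 at 148 h and 0.20 and 0.82 at 296 h. The 148 h arrays, all sparse, were the highest of this probe, the lowest of them level with 296 h array 2. At 148 h it was higher by 1.58 ± 0.35 (SE, adjusted p = 0.00952), or 2.99-fold, and without array 2 the value was 1.60 (adjusted p = 0.0573). Its mean of 0.31 ± 0.09 (SE, adjusted p = 0.011) became 0.02 on the full arrays alone, which include none of 148 h, and 0.11 with identifier groups centred, neither past the threshold. Prkaca, the alpha catalytic subunit, had a mean of -0.28 ± 0.11 (SE, adjusted p = 0.049996), a call lost in 13 of 19 fits that left out 1 array. Prkar2a did not pass, and Prkar1a, a type I regulatory subunit, passed only with identifier groups centred, at 24 h (-0.79, adjusted p = 0.0224) and in the mean (-0.46, adjusted p = 0.00201).

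Of the anchoring proteins only Akap8, which sits in the nucleus and binds chromatin, passed at a single time. It had 2 values at 148 h, 3.15 and 1.02, with a difference of 2.13 ± 0.51 (SE, adjusted p = 0.016), while the 296 h arrays read -0.17 and -0.11. Both values come from sparse arrays, and no fit without 1 of them could be made because 2 values were required. Of 6 anchoring probes tested for the mean effect all lay above 0 and 0 passed (1 at an unadjusted p under 0.05). With identifier groups centred Akap8 (0.44) and both Akap12 probes (0.27 and 0.56) passed. Creb1, the transcription factor that protein kinase A phosphorylates, had 2 probes that differed: probe 7D04 was above 0 on 15 of 17 arrays and probe 52F09 on 6 of 22. Neither passed as deposited. With identifier groups centred probe 52F09 passed at 148 h (1.76, adjusted p = 0.015) and in the mean (0.28, adjusted p = 0.031). Prkag1, a regulatory subunit of the AMP-activated protein kinase, had a mean of 0.37 ± 0.12 (SE, adjusted p = 0.02), which was 0.24 without 148 h array 2 and 0.26 without array 3 and passed neither there nor after centring (0.15).

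Over all times the mean effect passed for 18 of 47 member probes tested, 6 higher and 12 lower, or 38.3%, against a background of 40.0% of 2327 probes (18.5% higher and 21.5% lower). The members' share was thus near that of all probes, and their median was -0.04, against -0.02. By subfamily, 3 of 8 alpha, 3 of 4 beta, 2 of 7 gamma, 4 of 5 RGS, 2 of 6 cyclase, 1 of 4 phosphodiesterase, 2 of 5 protein kinase A and 0 of 6 anchoring probes passed. With identifier groups centred 16 member probes passed, 9 higher and 7 lower, against 33.9% of all probes. Gng5, Gng11, Rgs4, Gnai3 and Adcy2 (probe 52E09) kept the mean effect call and its direction in every fit that could be made under the alternatives. For Rgs4 those were 21 of the 23 fits that left out 1 array, since 2 left too few values, and Adcy2 had no value where its identifier group was removed. With array class as a block, 12 of the 18 calls were lost. The part of the identifier groups in the other calls was not tested.

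**Figure D4:**
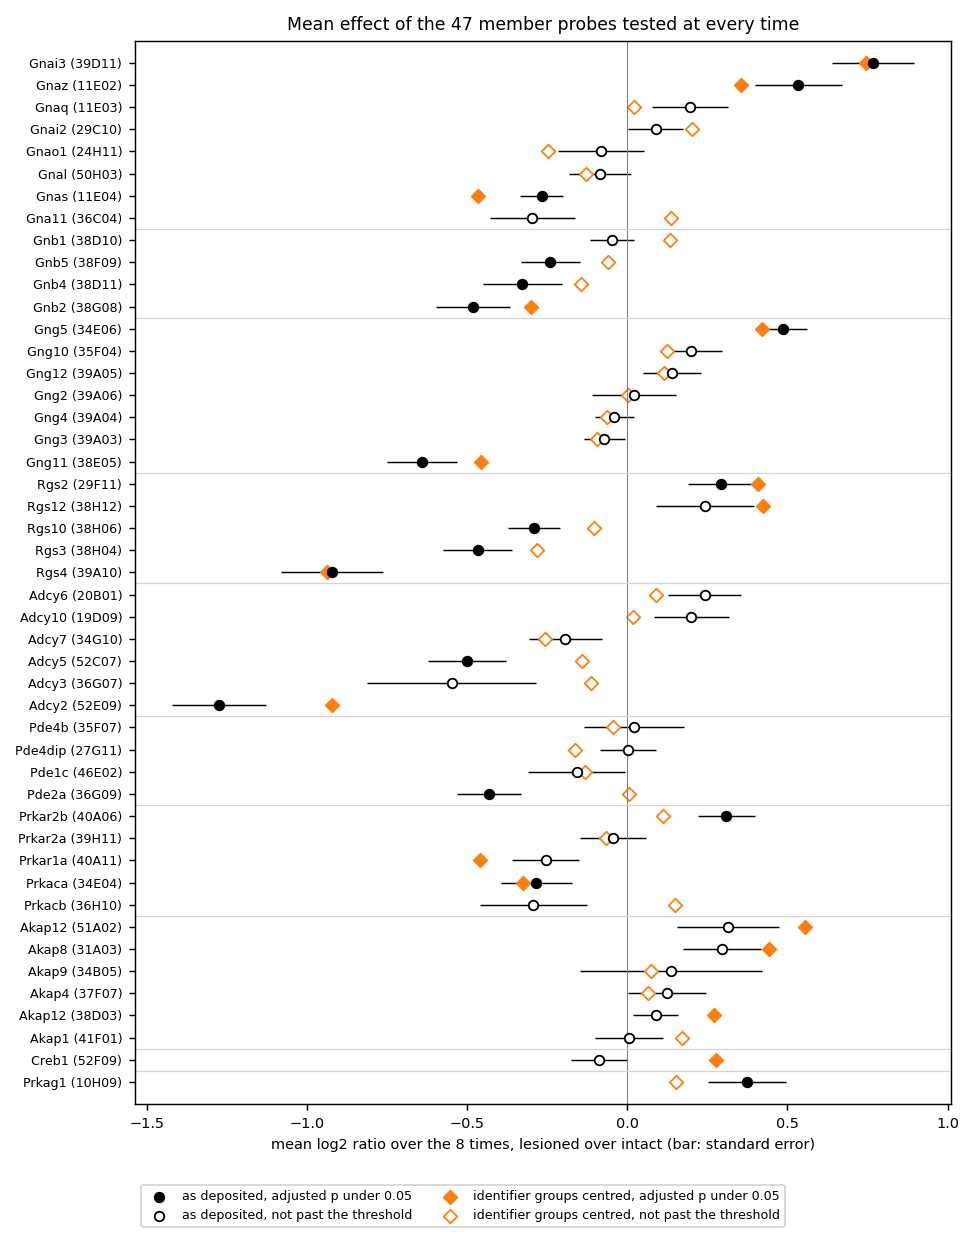
Mean log2 ratio of lesioned over intact ganglia over the 8 times (horizontal axis, bars are standard errors) for the 47 member probes tested at every time, grouped by subfamily. Black circles are values as deposited and orange diamonds values with identifier groups centred, filled where the adjusted p was under 0.05; Rgs4 and Gnai3 hardly move between them, and Pde2a moves to 0.0063.

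The change over time was tested as the mean of 48, 148 and 296 h minus the mean of 4, 8 and 12 h, in which a constant dye effect of a probe cancels. By limma 0 of 47 member probes passed (10 at an unadjusted p under 0.05), against a background of 4.98% of all probes. With equal array weights 8 passed, beside 263 of 2327 of all probes. With 1 array left out 0 to 6 passed, and Gnai3, Gng5, Gng11, Adcy2, Pde4dip and Prkar2b each did so at least once. Calls over all probes were not counted in those fits, so no background stands beside that range. The F-test of any difference between times also gave 0 of 47 (10 at an unadjusted p under 0.05), against 0.817%. With equal weights it gave 2, beside 98 of 2327 of all probes. In the late minus early difference the highest and lowest members were Gnai3 at 1.02 ± 0.32 (SE, adjusted p = 0.0766) and Gnal, the olfactory stimulatory subunit, at -0.30 among alpha subunits, Gnb1 at -0.12 and Gnb2 at -0.38 among beta, and Gng12 at 0.70 ± 0.23 (SE, adjusted p = 0.0881) and Gng11 at -0.77 ± 0.28 (SE, adjusted p = 0.115) among gamma subunits. Among the regulators and enzymes they were Rgs12 at 0.77 and Rgs4 at -1.03 ± 0.40 (SE, adjusted p = 0.151), Adcy10, the soluble cyclase, at 0.34 and Adcy2 at -1.24 ± 0.37 (SE, adjusted p = 0.0579), and Pde2a at 0.04 and Pde4dip at -0.76 ± 0.22 (SE, adjusted p = 0.0506). Prkar2b at 0.62 ± 0.23 (SE, adjusted p = 0.126) and Prkaca at -0.32, and Akap8 at 0.52 and Akap12 (probe 51A02) at -0.21, closed the range of the kinase and its anchors. Without 296 h array 1, which leaves the value of 4.33 alone at that time, the difference of Gnai3 was 1.68 (adjusted p = 2.02e-05), a fit that takes the lone array to vary like the others. The median of the members was 0.04, as was that of all probes.

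Of the receptors, effectors and other transcription factors of the pathway, 34 genes were on the array. Of 22 of their probes tested for the mean effect 2 were higher and 7 lower, which is near the background of 40.0% called. Ptger2, a prostaglandin E2 receptor that raises cyclic AMP, was lower at 18 h (-0.86, adjusted p = 0.00339), 24 h (-0.73, adjusted p = 0.0116) and 48 h (-1.22, adjusted p = 0.0228). With identifier groups centred the 18 h call held (-0.67, adjusted p = 0.0146), and those at 24 h (-0.54, adjusted p = 0.0513) and 48 h (-0.91, adjusted p = 0.104) did not. Rapgef3 (Epac1), a cyclic AMP activated exchange factor for Rap, had a mean of -1.22 (adjusted p = 4.32e-05) and a late minus early difference of -1.82 (adjusted p = 0.026), or -1.58 after centring (adjusted p = 0.0505). Its sister Rapgef4 was lower at 24 h (-0.85, adjusted p = 0.013), and Drd2, a dopamine receptor that lowers cyclic AMP, at 12 h (-0.82, adjusted p = 0.0076), the second of which was lost after centring (-0.60, adjusted p = 0.0589). The means of Drd2 (-0.81, adjusted p = 5.02e-05) and Rapgef3 passed after centring, at -0.66 (adjusted p = 0.000457) and -0.86 (adjusted p = 0.000931). That of Rapgef4 (-0.32, adjusted p = 0.0167) did not, at -0.14 (adjusted p = 0.275). Atf4 is a stress-responsive factor of the same family as CREB. Its probe 52H08 was higher at 12 h (0.42, adjusted p = 0.0263), 18 h (0.49, adjusted p = 0.0295) and 24 h (1.08, adjusted p = 5.66e-05). The mean was 0.36 (adjusted p = 0.000455) by that probe and -0.28 (adjusted p = 0.0117) by probe 7D01. After centring both means passed, at 0.71 and -0.48.

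Of 15 known cyclic AMP responsive target genes on the array, 11 were tested for the mean effect. Of their 14 probes 4 had a higher and 4 a lower mean, against 18.5% higher and 21.5% lower of all probes. With identifier groups centred none of the 4 lower probes (Nr4a1, Nr4a2, Sst and Mt1 probe 52G03) passed. The 4 higher probes all did, at 1.25 for Vgf (probe 1D09), 1.14 for Vip, 0.60 for Mt1 (probe 22G06) and 0.40 for Dusp1. Vgf, a secreted neuropeptide precursor, was higher at 18, 24, 48 and 148 h by probe 1D09, by 2.88 ± 0.37 (SE, adjusted p = 0.000241) at 48 h. Its other probe, 52D09, was higher at 18 h (0.90, adjusted p = 0.0445) and passed no other test as deposited. Dusp1, a MAP kinase phosphatase, was higher at 48 h (1.22, adjusted p = 0.0264, or 0.0609 after centring) and 148 h (1.72, adjusted p = 0.00963). Mt1, a metallothionein, was higher by probe 22G06 at 24 h (1.13, adjusted p = 0.00869) and lower by probe 52G03 at 148 h (-0.92, adjusted p = 0.0218), the second of which shares the identifier group of the low Adcy2 probe and was -0.35 after centring (adjusted p = 0.536). The nuclear receptors Nr4a1, at 24 h (-0.81, adjusted p = 0.0386), and Nr4a2, at 148 h (-1.79, adjusted p = 0.0353), were lower as deposited, and after centring neither passed, at -0.49 (adjusted p = 0.282) and -1.07 (adjusted p = 0.18).

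Markers of cell types moved at the same late times as Prkar2b, Akap8, Gng11, Pde4dip and Adcy2. At 148 h 2 of 3 macrophage probes tested were higher (C1qb at 3.51 and Lyz2 at 2.03), the range being -0.48 to 3.51. At that time 3 of 7 sensory neuron probes were lower, with a median of -0.89 and a range of -1.60 to 0.16, among them Tac1 and both Calca probes, of which probe 52C03 did not pass after centring (-0.33, adjusted p = 0.56). At 24 h, where Rgs4 and Prkacb were lower, other markers moved. Nefh, a neurofilament, was higher (1.19, adjusted p = 0.00143) and 0 neuron probes were lower, over a range of -0.52 to 1.19. Of 7 satellite glia probes 2 were lower (Glul and S100b, both at -0.77), with a median of 0.04 and a highest value of 0.31. Of 8 Schwann cell probes 2 were higher (Prx at 0.76 and Pmp22 at 0.50), over a range of -0.57 to 0.76. The muscle gene Ckm was lower (-0.89), the highest muscle probe being at 0.33, while 0 macrophage probes passed. Over all probes 6.19% passed at 24 h and 8.75% at 148 h. After centring, Glul, S100b and Pmp22 no longer passed. Of 7 Schwann cell probes at 148 h 1 was higher, and of 5 satellite glia probes 0 passed. The 3 skeletal muscle probes tested at 148 h ran from 1.19 to 2.36 and 0 passed. Their part in the members' values was not tested.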

How the data were processed

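The authors hybridised dendrimer-labelled RNA of lesioned and intact ganglia to spotted oligonucleotide arrays and deposited 1 linear ratio per probe and array. Scanning, background correction and normalization are not given in the sources used here. Spot brightness was not used, so precision rests on how many arrays a time has. Ratios were taken to log2 without further centring. Probes were named by the platform annotation (4423 with 1 symbol, 2 with several, 663 with none), and all 80 member symbols were unchanged in RefSeq.

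A model with 1 mean per time over all 23 arrays was fitted to every probe with limma 3.58.1 in R 4.3.3, with array weights and moderated variances, and p-values were adjusted by Benjamini-Hochberg over all probes tested, with a threshold of 0.05. A single time was tested on probes with at least 2 values at that time, and the mean effect, late minus early and the F-test on probes with at least 2 values at every time. An array with more than 200 missing probes was called sparse. The scripts were tested on simulated data.

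Members named are those past a threshold, the other probes of their genes, 4 given markers (Adcy2, Rgs4, Prkar2b, Prkacb) and the extremes of late minus early in each subfamily. Other pathway genes are those past the threshold in 2 or more tests. Rgs7, Adcy3 and the members listed only as not past the threshold lie outside this rule and were named after their values were seen. The members and lists were chosen with earlier results of these data known. Alternatives covered weights, centring, scaling, filters, robust moderation, blocks, probe averaging, the methods' t-test and leaving out each array.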

Additional observations from a re-analysis of the deposited data

How the results depend on the processing

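The number of arrays and the scatter of the sparse ones limit every late value, and no alternative removes a constant dye effect. Member probe calls summed over 4 to 24 h numbered 8. They were 2 with equal weights and 0 with only the arrays of the time. By the ordinary t-test they were 37 unadjusted and 0 after Benjamini-Hochberg. Without identifier groups 36, 52 and 53 they were 4, and with 1 array left out 3 to 9. Summed over 48 to 296 h they numbered 9, against 33 with equal weights, 17 with 1 weight per array class and 0 with only the arrays of the time. They were 22 and 0 by the ordinary t-test, unadjusted and adjusted, and 4 to 11 with 1 array left out. Counts over all probes moved too. At 148 h equal weights called 16 of 63 member probes and 916 of 3187 of all, against 5 and 279 in the main fit. At 24 h the unadjusted t-test called 12 of 86 member probes and 567 of 5011 of all, against 4 and 310. Full arrays alone could test no single late time. The 18 mean effect calls became 7 with array class as a block, where the calls over all 2327 probes went from 930 to 482. With 1 array left out they were 12 to 26, and calls over all probes were not counted in any such fit. The 0 late minus early calls became 8 with equal weights (beside 263 of 2327 of all probes) and 2 by array class (149 of 2327). They became 1 with median centring (116 of 2327), 1 with scaling (48 of 2327) and 2 of 85 on full arrays (117 of 4917). With identifier groups centred 1 passed (Pde4dip, -0.93, beside 91 of 2327 of all probes). With probes of a gene averaged 1 passed, and with 1 array left out 0 to 6. The 0 calls of the F-test became 2 with equal weights (beside 98 of 2327 of all probes) and 2 of 85 on full arrays (72 of 4917). With 1 array left out they were 0 to 5. The full arrays are 1 at 48 h, none at 148 h and 1 at 296 h, so theirs is another contrast over more probes. Removing identifier groups 36, 52 and 53 also took out the called probes of Pde2a, Prkacb and Adcy5, so those calls could not be made there. The cause of the other shifts was not tested.

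Centring on identifier groups was chosen after seeing the data. It turned the sign of 1 of 35 called results, the mean of Pde2a (0.0063), and 13 others lost their call. Leaving out 1 array lost a call in 128 of 791 fits and turned no sign. No pairing of arrays by replicate number was seen. Deviations of same-numbered arrays correlated at -0.14 to 0.12 over 77 pairs, and those of different-numbered arrays at -0.14 to 0.20. Of 23 arrays 7 were closest to their own number. With the replicate block the counts were 6, 8, 16, 0 and 0 for the 5 summaries in the order above.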
